A study of Homo sapiens with 5 samples.

Results

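The IFIT cluster of chromosome 10 holds the genes IFIT2, IFIT3, IFIT1B, IFIT1 and IFIT5. Its H3K27ac peaks were followed in HCT116 cells after 1 h of IFN-β. The members are the peaks whose center lies within 20 kb of a GENCODE release 44 transcription start site of one of these 5 genes, and 5 of the 20087 peaks in the deposited table met this rule. The rule used position and no measured value. H3K27ac is the acetylation of histone H3 at lysine 27, a mark of active promoters and enhancers. ChIP-seq for it used 500000 cells per experiment of the HCT116 CMV-osTIR1 RAD21-mAC line, a human colorectal carcinoma line engineered to express osTIR1 and to carry a degron tag on RAD21. All cells, the controls included, were kept in 0.1% DMSO for 6 h, and the labels name no auxin. The input was 1 library, labeled mock and 60 min. There were 2 ChIP libraries given 1000 unit/ml IFN-β, labeled 60 min, and 2 control ChIP libraries given no further treatment, labeled 0 min. The groups may therefore also differ by 1 h of culture, which cannot be told apart from IFN-β in this design.

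IFIT proteins are antiviral effectors built from tetratricopeptide repeats, and they act by binding RNA. IFIT1 binds capped RNA that lacks the ribose methylation of host messengers. IFIT2 and IFIT3 form complexes with IFIT1, and IFIT5 binds RNA with a free triphosphate end. IFIT1B is a paralog of IFIT1. Type I interferon turns on such genes through the JAK1 and TYK2 kinases and the factor ISGF3, which contains STAT2 and IRF9 and binds the interferon-sensitive response element (ISRE) in their promoters.

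Signal is given as the log2 of the mean normalized reads per peak over the 2 libraries of a group, as the authors deposited it. Values of single libraries are not part of the table. Hence no SD and no test between groups is given, and whether the 2 libraries of a group agreed cannot be seen here. A difference is the IFN-β value minus the control value on the log2 scale. The lowest values of the table rise in steps of whole reads. Its lowest control value is 0.889 normalized reads, and its next values lie 0.386 and 0.496 above it, steps that sum to 0.882. In the IFN-β group the lowest value is 0.664, and the steps of 0.329 and 0.343 sum to 0.671. The lowest value was therefore taken as 1 read in each library, which gives the approximate number of reads behind each mean. From these reads an exact 95% binomial interval of each difference was computed. It covers counting error only, and not the spread between libraries.

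The whole table was shifted downward. Its median difference was -0.69, with an SD across the 20087 peaks of 0.46, and 5.93% of peaks had a difference above 0. Each IFIT value below is therefore also given relative to this median. Of 6 intestinal epithelial genes looked up as a check of the cell type, EPCAM, CDX2, KRT8 and KRT18 had a peak within 5 kb of a start site, while CDX1 and VIL1 had none. None of 3 blood cell genes (PTPRC, CD3E and SPI1) had such a peak.

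The promoters of the cluster are shown first, with their matches of the ISRE, since the peaks differed in signal but shared this sequence. A match describes the letters only and does not show that a factor binds there. The ISRE core searched was GAAANNGAAA on either strand, where N is any base, and the longer consensus was GAAANNGAAACT, which contains the core. Promoter sequences came from RefSeq (GRCh38.p14), where 4 of the 5 genes were matched and IFIT2 was not. Each is written 5′ to 3′ on the strand of the gene, which is the forward strand for the whole cluster, with core matches in capitals. The matches in these promoters lie on the reverse strand, so they read TTTCNNTTTC. Only bases outside annotated untranslated regions are printed, except at the IFIT5 sites. Positions count from the RefSeq start site, which is 0.
IFIT1 (chr10:89392373-89392545): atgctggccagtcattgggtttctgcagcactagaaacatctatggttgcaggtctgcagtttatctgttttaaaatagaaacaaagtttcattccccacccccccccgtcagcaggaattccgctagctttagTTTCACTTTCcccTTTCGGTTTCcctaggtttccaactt
IFIT3 (chr10:89327747-89327940): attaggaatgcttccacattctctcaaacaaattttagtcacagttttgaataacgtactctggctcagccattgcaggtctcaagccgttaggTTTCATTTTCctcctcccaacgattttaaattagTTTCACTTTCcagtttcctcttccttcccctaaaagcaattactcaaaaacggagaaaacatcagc
IFIT1B (chr10:89377806-89378055): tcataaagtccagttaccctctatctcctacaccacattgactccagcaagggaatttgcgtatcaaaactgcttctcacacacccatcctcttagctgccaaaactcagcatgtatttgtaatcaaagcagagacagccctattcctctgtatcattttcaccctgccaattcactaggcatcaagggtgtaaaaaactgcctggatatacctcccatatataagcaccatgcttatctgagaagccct
IFIT1 held a pair of cores, which begin at -116 and -103 and are separated by only a few bases. IFIT3 held a pair at -156 and -122. IFIT1B held no core in its 300 bases (250 before and 50 after the start). The cores of IFIT5 lie at or just before its start site. They fall wholly or partly in untranslated regions of LIPA or IFIT5, so only the sites are shown, each with 2 flanking bases.
IFIT5 at -45 (chr10:89414521-89414534): agTTTCGGTTTCtg
IFIT5 at -19 (chr10:89414547-89414560): agTTTCGATTTCtt
IFIT5 at -4 (chr10:89414562-89414575): agTTTCAGTTTCtg
In all 3 IFIT5 sites the capitals are preceded by ag, which makes each one a match of the longer consensus. The same holds for the core at -116 in IFIT1 and the core at -122 in IFIT3. Among all 35116 RefSeq promoters of this length, 3.57% held the core, 0.259% held it at least 2 times and 0.273% held the longer consensus. These promoter shares were not matched for GC content. IFIT3 has another RefSeq promoter, at the start site 89332529, with cores at -94 and -51. No peak centered within 1 kb of that start site was listed, although the sequence holds as many cores as the promoter of the main IFIT3 start site.

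IFIT1 showed the largest change of the cluster. Its peak (chr10:89391838-89392838, centered 285 bp before the canonical start site, in an intron of LIPA) had a log2 signal of 4.06 in the control and 5.65 with IFN-β. These are means of 16.7 and 50.2 normalized reads, a 3.01-fold difference. The log2 difference was 1.59 (counting interval 1.05 to 2.12), or 2.28 relative to the median of all peaks. Of the 20087 peaks, 24 had a higher difference, and so did 6 of the 11334 promoter peaks, whose center lies within 1 kb of a protein-coding start site. Among the 2986 peaks with a mean log2 signal within 0.25 of it, 0 had a higher difference. Among the 1795 peaks with a GC content within 2.5 percentage points of its 40.1%, 3 did. The IFIT1 peak made up 13.0% of the summed normalized reads of the cluster in the control and 28.2% with IFN-β.

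**Figure D1:**
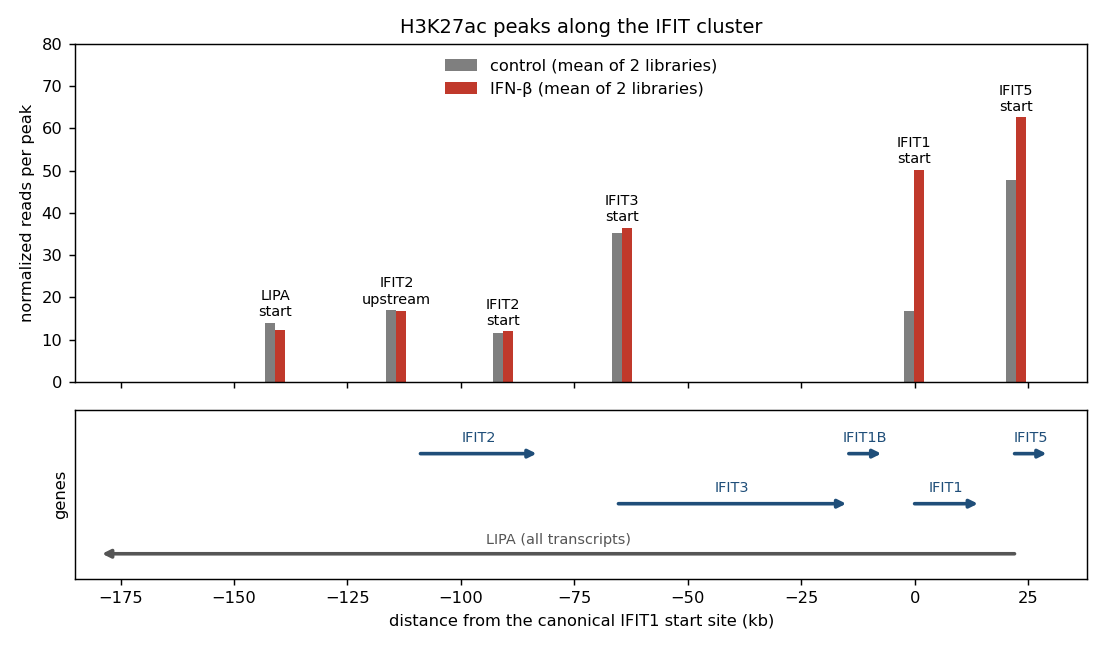
Mean normalized reads per peak (bars, from 0, mean of 2 libraries, no error bar since the table gives group means) in control and IFN-β cells, against the distance in kb from the canonical IFIT1 start site, above the annotated genes with arrows in the direction of transcription. Bars are drawn wider than the peaks. The IFIT1 bar goes from 16.7 to 50.2, while the bars at IFIT2 and IFIT3 are level between the groups. The median log2 difference of all peaks was -0.69, so level bars lie above it.

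IFIT5 had the strongest peak of the cluster and the second largest difference. The peak (chr10:89414445-89415445, centered 377 bp after the canonical start site, in an intron of IFIT5) had a log2 signal of 5.58 in the control and 5.97 with IFN-β, or 47.8 and 62.7 normalized reads. Its difference was 0.39 (counting interval 0.04 to 0.74), and 1.08 relative to the median of all peaks. Higher differences were found for 384 of all peaks, and for 9 of the 2699 peaks of like mean signal. A transcript of LIPA, the gene of lysosomal acid lipase, starts 11 bp away on the opposite strand, inside this same peak. The mark cannot be assigned to one gene or the other.

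IFIT3 was level between the groups. Its peak (chr10:89327562-89328562, centered 65 bp after the canonical start site, in the untranslated first exon) had a log2 signal of 5.14 in the control and 5.19 with IFN-β, or 35.3 and 36.5 normalized reads. The difference of 0.05 had a counting interval of -0.37 to 0.49. Relative to the median of all peaks it was 0.74. Higher differences were found for 56 of the 3028 peaks of like mean signal and for 225 of the 1825 peaks of like GC content. Its mean signal was slightly above that of the IFIT1 peak, and the counting intervals of their differences did not overlap.

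IFIT2 had 2 peaks under the 20 kb rule, and they had the lowest mean signals of the cluster. The peak at the canonical start site (chr10:89301430-89302430, centered 116 bp before it, in an intron) had a log2 signal of 3.52 in the control and 3.58 with IFN-β, or 11.5 and 12.0 normalized reads. Its difference of 0.06 had a counting interval of -0.72 to 0.84, the widest of the cluster, so a change as large as that of IFIT5 was not detectable at this depth. The peak further upstream (chr10:89277911-89278911) lies 5283 bp before the first annotated IFIT2 start site, and its center falls in an exon of a LIPA transcript. Its log2 signal was 4.09 in the control and 4.06 with IFN-β, or 17.0 and 16.7 normalized reads, with a difference of -0.03 (counting interval -0.66 to 0.62). Among peaks of like mean signal, 222 of 2344 had a higher difference than the start site peak and 194 of 2411 had a higher one than the upstream peak. Among peaks of like GC content, 211 of 1997 had a higher difference than the start site peak. For the upstream peak, 185 of 1095 did. After subtraction of the median of all peaks the upstream difference was positive, at 0.66, and that of the start site peak was 0.75.

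IFIT1B had no peak of its own. The nearest peak center, that of the IFIT1 peak, lies 14.3 kb from its single annotated start site, while each of the other 4 genes had a peak within 1 kb of a start site. The table lists only called peaks, so the signal at IFIT1B below the calling threshold is not given by it.

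Control signal did not order the differences in this cluster. The IFIT1 peak and the upstream IFIT2 peak had nearly the same control signal (4.06 and 4.09), yet their differences were 1.59 and -0.03. Of the 10 pairs of member peaks, the counting intervals of the differences were separate in the 4 pairs with IFIT1 and overlapped in the other 6. The order from IFIT5 to IFIT2, IFIT3 and the upstream peak is therefore not resolved even by counting error.

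Of the 5 member peaks, 4 had a difference above 0, beside 5.93% of all peaks. The shares of all peaks given here were not matched for GC content, which was low at the IFIT1, IFIT2 and IFIT3 peaks. A difference of at least 1 above the median of all peaks was found in 2 of the 5 (IFIT1 and IFIT5), beside 2.51% of all peaks. The median of the members was 0.06, compared with -0.69 for all peaks and -0.75 for promoter peaks. The counting interval lay above the median of all peaks in 4 members, with that of the IFIT2 start site peak as the exception, beside 7.89% of all peaks. For the upstream IFIT2 peak its lower bound of -0.66 was close to that median. The interval lay above 0 in 2 members (IFIT1 and IFIT5), beside 0.587% of all peaks. Summed over the 5 peaks, the mean normalized reads went from 128.3 in the control to 178.0 with IFN-β, a ratio of 1.39. Without the IFIT1 peak the sum went from 111.6 to 127.8, a ratio of 1.14. The same ratio over all peaks was 0.616.

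**Figure D2:**
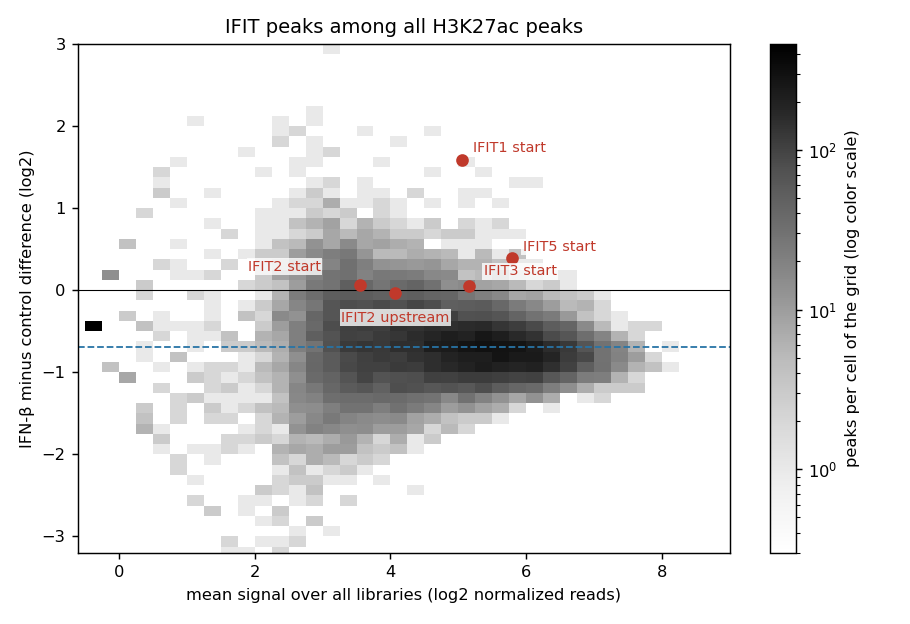
IFN-β minus control difference (log2) against the mean log2 signal over all libraries, for all peaks as a grey density (log color scale) and the 5 IFIT peaks as red points. The dashed line is the median of all peaks at -0.69, and 10 peaks lie beyond the axes. IFIT1 stands above the cloud at its signal, IFIT5 at its upper edge, and the peaks of IFIT2 and IFIT3 sit near 0 within its upper part.

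Only 1 neighboring peak was centered over 20 kb and up to 200 kb from a member start site. It marks the canonical start site of LIPA (chr10:89251215-89252215), and its log2 signal was 3.81 in the control and 3.62 with IFN-β. The difference of -0.19 had a counting interval of -0.93 to 0.52, which holds the median of all peaks. All 5 IFIT peaks had higher differences than LIPA, but the interval was separate from that of LIPA for IFIT1 alone. LIPA spans the cluster up to IFIT5, since its longest transcript starts there, so 4 of the 5 IFIT genes, all but IFIT5, lie inside LIPA as annotated. CH25H, whose product hydroxylates cholesterol and which lies nearest to the cluster on the other side of LIPA, had no peak closer than 44.4 kb. SLC16A12, a transporter gene beyond IFIT5, had none closer than 88.2 kb. The start site of PANK1, a pantothenate kinase gene, that falls inside the 200 kb had none closer than 33.0 kb.

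Within 500 kb there were 7 neighboring peaks, whose nearest protein-coding start sites were those of ANKRD22, STAMBPL1, FAS, LIPA, PANK1 and, for a pair of peaks, KIF20B. Their differences ranged from -2.20 to -0.07 with a median of -0.59. None was above 0, and with 5.93% of all peaks above 0 this count is near the background. The counting interval of STAMBPL1, from -0.45 to 0.32, also lay above the median of all peaks. All 5 IFIT peaks lay above the highest of them, that of STAMBPL1, but the lowest IFIT value of -0.03 differed from it by far less than the counting error. The difference between IFIT peaks and neighbors was not tested.

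**Figure D3:**
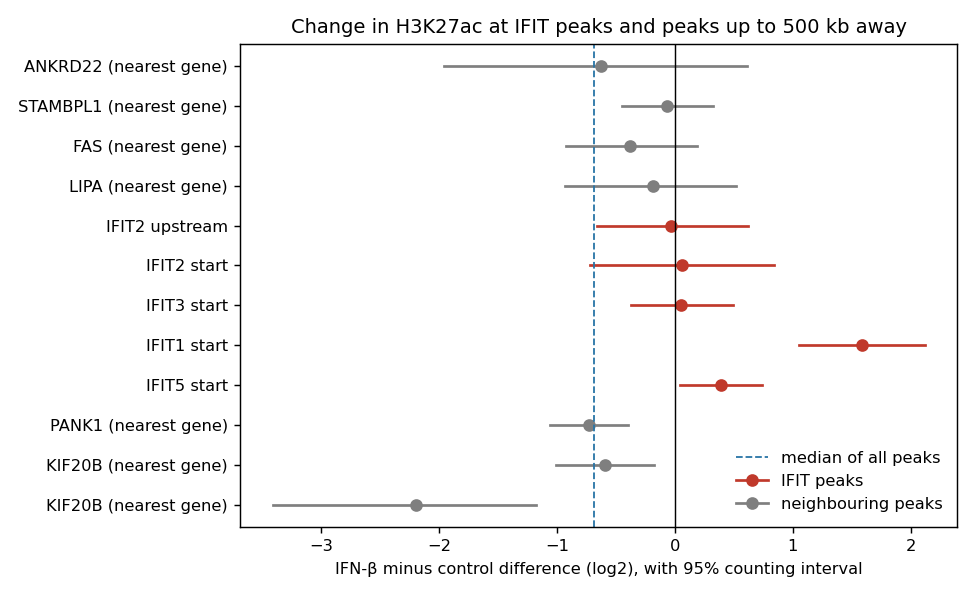
IFN-β minus control difference (log2) of each IFIT peak (red) and each neighboring peak up to 500 kb away (grey), in order along the chromosome, with lines for the 95% counting interval. The dashed line is the median of all peaks at -0.69. The IFIT1 interval of 1.05 to 2.12 is apart from all others.

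All 5 IFIT peaks held the ISRE core within 500 bp of their center, and each held it at least 2 times. The core occurred in 11.6% of all 20087 peaks and at least 2 times in 1.72%. These shares were not matched for GC content, which was below the median of all peaks at every IFIT peak but that of IFIT5. There were 12 cores in the 5 peaks, 10 of them on the reverse strand. IFIT1 and IFIT5 held 3 each, and 0.299% of all peaks held at least 3. The third IFIT1 core lies at chr10:89392243-89392252, further upstream than the promoter shown above. The IFIT2 start site peak and the upstream IFIT2 peak held 2 each, as did IFIT3. In the upstream peak they lie at chr10:89278206-89278215 and chr10:89278238-89278247, in an exon of LIPA. The longer consensus was present in 4 of the 5 peaks, the upstream IFIT2 peak being the exception, and in 0.816% of all peaks. It occurred 3 times in the IFIT5 peak. Only 1 other peak of the table, that of IFI6, held it 3 times. The core was not particular to the IFIT cluster. It was held by 10 of the 14 peaks of other interferon-stimulated effector genes, a list read below. Those of IFI6, IFIH1, HERC5, HERC6, DDX60 and USP18 held it at least 2 times. Of the 6 peaks of genes of the pathway to ISGF3, 0 held it.

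The 2 peaks with 3 cores, IFIT1 and IFIT5, had the highest differences of the 5, and the 3 peaks with 2 cores lay between -0.03 and 0.06. This order over 5 peaks is a description and was not tested. At the same number of cores, the differences of IFIT1 and IFIT5 were 1.59 and 0.39. IFIT5 had 3 matches of the longer consensus and IFIT1 had 1. Core number did not order the differences among the other interferon pathway genes read below. There, the peaks with 3 cores were those of IFI6 (1.94), IFIH1 (0.25) and HERC5 (0.00). Peaks without a core included those of IRF9 (1.29) and RIGI (1.08), and also those of JAK1 (-0.47) and ISG15 (-0.53). The LIPA start peak held no core. Of the 7 neighbors within 500 kb, 1, that of FAS, held any, which is near the share of 11.6% over all peaks.

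**Figure D4:**
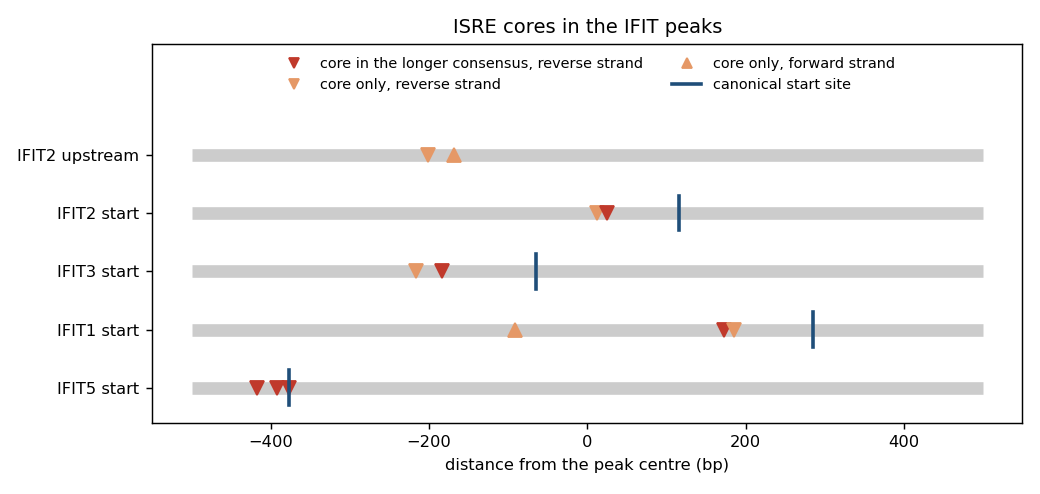
Position of each ISRE core (triangles, pointing down for the reverse and up for the forward strand) relative to the center of each IFIT peak in bp, with the canonical start site as a blue bar. Dark red marks cores inside a longer consensus match. The start site cores lie before the start site in IFIT2, IFIT3 and IFIT1. In IFIT5 the cores that begin at -45 and -19 lie before the start site, and the core that begins at -4 crosses it.

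Of 3 other motifs searched, the GAS core TTCNNNGAA was found in 1 of the 5 peaks, that of IFIT1, and in 21.8% of all peaks. The TATA box TATAAA was found in 4, with IFIT5 as the exception, and in 28.6% of all peaks. The AP-1 site TGANTCA was found in all 5 and in 33.4% of all peaks. GC content was low at the upstream IFIT2 peak (35.3%), IFIT1 (40.1%), IFIT3 (40.5%) and the IFIT2 start (42.9%), and 65.3% at IFIT5. The median over all peaks was 58.0% and that over promoter peaks was 64.2%. The shares of all peaks given for these motifs were not matched for GC content either.

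The genes that carry the interferon signal to the cluster were read by the same measure. Of 6 genes of the pathway to ISGF3, the peaks nearest to IRF9 (1.29) and STAT2 (0.46) had differences above 0. Those of the receptor genes IFNAR1 (-0.66) and IFNAR2 (-0.67) and of the kinase genes JAK1 (-0.47) and TYK2 (-0.41) did not. The median of the 6 was -0.44. The IFIT1 difference was above that of each of these 6 genes, although its counting interval overlapped that of IRF9, and IFIT5 was near STAT2.

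The list of 20 other interferon-stimulated effector genes was chosen with earlier results of these data known. Of these genes, 15 had a peak within 5 kb of a start site, on 14 separate peaks. Of these 14 peaks, 12 had a difference above 0, beside 5.93% of all peaks and 2.81% of promoter peaks. Another 1 lay below 0, and the median of the 14 was 0.38. IFI6, which encodes a small membrane protein, was the only one above IFIT1, with a log2 signal of 3.36 in the control and 5.30 with IFN-β, and their counting intervals overlapped. SAMD9, an antiviral translation inhibitor (1.17), and RIGI, a sensor of viral RNA (1.08), came next below IFIT1. The value below 0 was that of ISG15, where the rule took a peak at a far start site. IFIT3 and both IFIT2 peaks lay near HERC5, a ligase for the ISG15 protein, with 0.00, and TRIM22 with 0.08. The TRIM22 peak was centered 4802 bp from the nearest start site of that gene. The counting interval of IFIT1 overlapped those of 6 of the 14 effector peaks. The 20 kb rule was also applied to other interferon-stimulated clusters. The OAS cluster, with the enzymes that activate RNase L, had 1 peak for 3 genes, at OAS3, with a difference of 0.37. The pair MX1 and MX2, genes of antiviral GTPases, also had 1 peak, at MX1, with a difference of 0.78. Each of these peaks held the ISRE core. The IFIT cluster thus had more listed peaks, and its values enclosed both of theirs. It also has more genes, and its range of values was set against single values. Differences between these groups were not tested.

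**Figure D5:**
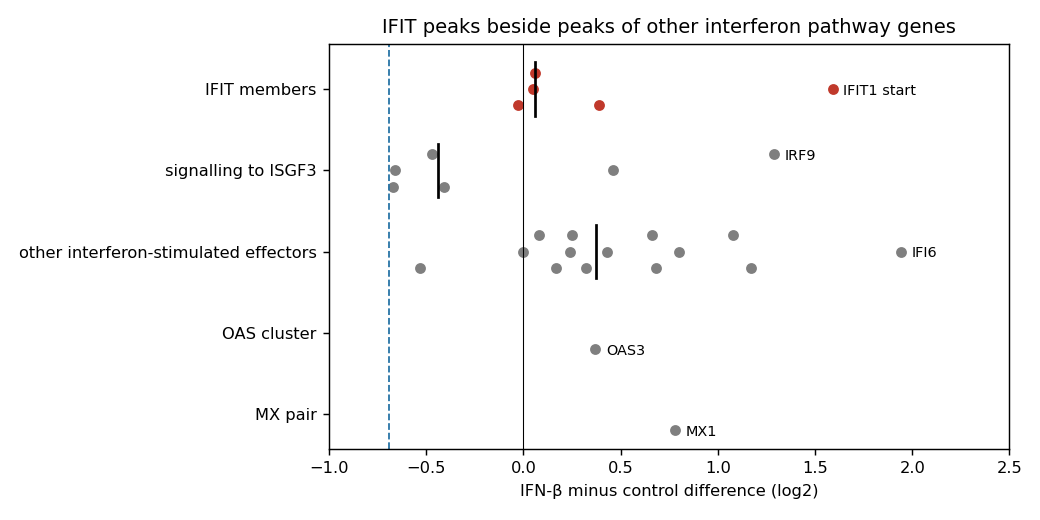
IFN-β minus control difference (log2) of the peaks of the IFIT cluster and of other interferon pathway genes, 1 point per peak, with a black bar at the median where a list has more than 2 peaks and the highest peak named. The dashed line is the median of all peaks at -0.69. IFIT1 at 1.59 is exceeded only by IFI6 at 1.94, while the other IFIT peaks lie between -0.03 and 0.39.

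The promoter peaks most like each IFIT start site peak were found by the Euclidean distance in control and IFN-β log2 signal, which rests on only 2 group values. For IFIT1 the nearest were PML (distance 0.35), HELZ2 (0.45) and PNPT1 (0.62), and of 11330 candidates 0 lay within 0.1. For IFIT5 they were DTX3L (0.06), IRF1 (0.17) and STAT2 (0.17). IFIT3 had NFKBIZ, RBMS2 and ITGA5 at 0.03 to 0.05, with 6 candidates within 0.1. The IFIT2 start had RMC1, PTGS2 and ACTR6 at 0.03 to 0.04, with 16 within 0.1. The IFIT1 profile was thus the most isolated of the cluster on this measure.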

How the data were processed

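The authors made 2 IFN-β and 2 control H3K27ac ChIP-seq libraries and 1 input library. The authors trimmed reads with FastP (version 0.19.3 in the submitters' processing notes), aligned them to GRCh38 with bowtie2, called peaks per library with MACS2 relative to input, and merged peaks and counted reads with DiffBind. The deposited log2 columns hold mean normalized reads of each peak, both over all 4 ChIP libraries and within each group. The columns with the authors' fold-changes, p-values and FDR were not used.

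Differences were computed from the deposited group means, with no test, since no library values were given. All 39 sequence names matched the reference, and start sites came from GENCODE release 44. Motifs were searched within 500 bp of each center. Counting intervals treat a normalized read as a fixed number of reads and leave out any subtraction of input. Python 3.11.15, numpy 2.4.6, pandas 2.3.3, scipy 1.17.1 and matplotlib 3.10.9 were used. The motif scan and the intervals were tested on simulated data.

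The members and gene lists were chosen with earlier results of these data known, and the cell type genes after the table was examined. Some genes of these lists are not reported here and were left out of the counts and medians. Named are the 5 genes, protein-coding genes within 200 kb, the listed pathway genes by their nearest peak within 5 kb, and the 3 promoter peaks most like each IFIT start site peak. Peaks up to 500 kb away come from an alternative. Alternatives changed the distances, the start sites, the centring, the reads added, the signal minimum and the motif definition.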

Additional observations from a re-analysis of the deposited data

How the results depend on the processing

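The number of IFIT peaks was 4 within 5 kb, 6 within 50 kb, and 5 with gene starts only or with distances from peak edges. The median difference of the IFIT peaks went from 0.06 to 0.75 after subtraction of the median of all peaks. The difference of the upstream IFIT2 peak turned from -0.03 to 0.66 under the same subtraction, and to 0.16 when the LIPA neighbor was subtracted. The sign at the other 4 IFIT peaks held under every alternative run. Adding 5 normalized reads lowered the IFIT1 difference from 1.59 to 1.35. The share of all peaks with a difference above 0 fell from 5.93% to 2.98% for peaks with a mean log2 signal of at least 4, and was 2.81% for promoter peaks. The core was found in 4 of the 5 IFIT peaks within 250 bp of the center, where IFIT5 had none. No paired analysis was possible because the table holds group means and no value per library, and for the same reason no library could be left out. A change at IFIT2 smaller than its counting interval was not detectable at this depth.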
